A study of Mus musculus with 8 samples.

Results

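The microRNA precursors of the mir-34 family (mmu-mir-34a, mmu-mir-34b and mmu-mir-34c), mmu-mir-192, both copies of mir-194 (mmu-mir-194-1 and mmu-mir-194-2) and mmu-mir-215 were followed in myoblasts of old and young mice, chosen by name as microRNAs that respond to the tumour suppressor p53. They are 7 of the 1181 precursors listed. Small RNA was sequenced from myoblasts, the dividing precursor cells of muscle fibres, of old and young C57BL/6J mice, in 4 libraries per age group. The titles give an age group and a number, and each library is taken here as 1 mouse. The labels give no genotype, treatment or age other than old or young, and isolation and culture of the cells are not described in the labels used here. The libraries are called old 1 to old 4 and young 1 to young 4, after the titles. Each value is a log2 normalized abundance that behaves as reads per length of the precursor. Levels of different precursors are compared on this per-length scale, where the same reads give a higher value to a shorter hairpin. A value listed as 0 is at or under a linear value of 1. The precursors are described here as a readout linked to cellular senescence, compared between the age groups.

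p53 is a transcription factor that is stabilised by DNA damage and other stress and that can halt the cell cycle or drive cells into senescence, a lasting arrest. It binds and activates the genes of mir-34a and of the mir-34b and mir-34c cluster, whose products repress cyclins, cyclin-dependent kinases, Bcl2 and Sirt1. In human cancer cells it also raises mir-192, mir-194 and mir-215, which are otherwise best known as abundant microRNAs of intestine, liver and kidney. The miR-449 microRNAs share the seed of miR-34, the stretch that pairs with target messenger RNAs, and are known from multiciliated epithelium together with mir-34b and mir-34c.

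The mature sequences show which of these microRNAs share a seed and which precursors cannot be told apart by their reads. The RefSeq table (GRCm38.p6) holds the sequences below, 5′ to 3′, with bases 2 to 8, the seed, in capitals.
mmu-miR-34a-5p: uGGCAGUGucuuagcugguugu
mmu-miR-34b-5p: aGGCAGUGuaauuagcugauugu
mmu-miR-449a-5p: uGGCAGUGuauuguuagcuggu
mmu-miR-449c-5p: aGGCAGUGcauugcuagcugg
mmu-miR-34b-3p: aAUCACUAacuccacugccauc
mmu-miR-34c-3p: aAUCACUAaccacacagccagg
mmu-miR-192-5p: cUGACCUAugaauugacagcc
mmu-miR-215-5p: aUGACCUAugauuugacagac
mmu-miR-194-5p: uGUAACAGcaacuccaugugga
The seed GGCAGUG is shared by miR-34a-5p, miR-34b-5p, miR-449a-5p and miR-449c-5p, and miR-34a-5p and miR-449a-5p have the same base at 15 of 22 positions counted from the 5′ end. miR-34c-5p, whose sequence is not printed here, is known to carry the same seed. The seed UGACCUA is shared by miR-192-5p and miR-215-5p, which have the same base at 18 of 21 positions. miR-34b-3p and miR-34c-3p share the seed AUCACUA and 17 of 22 positions. The values are listed per hairpin, so reads of the 5p and 3p arms of mir-34b or mir-34c were not told apart.

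The copies of mir-194 make the same 5p microRNA from different hairpins, which are shown because their values below are close to each other; capitals mark the shared miR-194-5p.
mmu-mir-194-1: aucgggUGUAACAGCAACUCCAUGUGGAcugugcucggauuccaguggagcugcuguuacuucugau
mmu-mir-194-2: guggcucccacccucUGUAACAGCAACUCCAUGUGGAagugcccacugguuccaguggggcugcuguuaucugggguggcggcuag
A read of miR-194-5p matches both hairpins, and the labels do not say how such reads were divided. The 3p microRNAs of the copies differ in sequence, so reads of that arm can tell the copies apart.

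The precursors come from 4 loci (mm10, the same build as GRCm38). mir-34a lies alone on chromosome 4 (150068454 to 150068555, plus strand), over an exon of the GENCODE gene model Gm37795. mir-34b (51103562 to 51103645) and mir-34c (51103034 to 51103110) lie on the minus strand of chromosome 9 with 451 bases between them, antisense to an intron of Btg4. mir-194-2 (6264643 to 6264728) and mir-192 (6264844 to 6264932) lie on the plus strand of chromosome 19 with 115 bases between them and overlap no other annotated gene. mir-194-1 (185313319 to 185313385) and mir-215 (185313581 to 185313692) lie on the plus strand of chromosome 1 with 195 bases between them, antisense to an intron of Iars2, with mir-194-1 in an intron and mir-215 in an exon of 2010103J01Rik.

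Of the 7 precursors, 6 passed the filter on low values (10 or more on the linear scale in 4 or more libraries) and entered the comparison, as did 359 of all 1181; mir-215 did not. The libraries held 25.0 to 39.4 M reads, estimated from the steps between low values. The muscle markers were abundant: mir-206, a microRNA specific to skeletal muscle, was at 14.78 to 16.52, and mir-486, also enriched in muscle, at 20.29 to 22.11 on the log2 scale. The other members of the muscle list did not go 1 way. mir-133a-1, mir-133a-2 and mir-133b were high, at 11.91 to 14.92, 11.28 to 14.29 and 10.17 to 13.28. mir-1a-1 and mir-1a-2, abundant in mature muscle, were low, at 0 to 3.22 and 0 to 2.47. mir-486 took 28.0% to 44.2% of the reads of old libraries and 16.4% to 57.9% of those of young ones, with the lowest share in young 4.

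mir-34c was the most abundant of these precursors. Its log2 abundance was 13.25, 13.84, 13.82 and 14.85 in the old mice (1 to 4) and 13.80, 13.99, 13.37 and 14.97 in the young mice (1 to 4). Old 4 and young 4 were the highest, and the groups overlapped throughout. The lowest library held 20949 reads of it and the highest 97446, as recovered from the values, which put it at ranks 28 to 49 of the 1181 precursors. The mean was 13.94 ± 0.67 in the old and 14.03 ± 0.68 in the young (SD over 4 libraries per group), a difference of -0.09 with a 95% interval from -1.08 to 0.90 (limma adjusted p = 0.995, exact two-sided permutation p = 0.743). As a ratio of old to young this is 0.938 with an interval from 0.472 to 1.87.

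mir-34a, the member of the family most often used as a readout of p53, was at 11.49, 11.46, 11.88 and 12.36 in the old mice (1 to 4) and at 11.70, 10.92, 11.43 and 12.73 in the young mice (1 to 4). The young libraries held both the lowest value, in young 2, and the highest, in young 4, and all old libraries lay between them. The means were 11.80 ± 0.42 and 11.70 ± 0.76 (SD over 4 libraries per group). The old to young ratio was 1.07 with a 95% interval from 0.555 to 2.08 (limma adjusted p = 0.995, exact two-sided permutation p = 0.83). mir-34a stood at ranks 64 to 92 and held 6339 to 27325 recovered reads.

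mir-34b, which shares its locus with mir-34c, was at 9.26, 9.62, 10.21 and 11.19 in the old mice (1 to 4) and at 9.94, 9.69, 9.93 and 11.12 in the young mice (1 to 4). Old 4 and young 4 stood about 1 log2 unit above the mean of all 8 libraries, at 1.07 and 1.0, and no other library was more than 0.09 above it. The means were 10.07 ± 0.84 and 10.17 ± 0.64 (SD over 4 libraries per group), an old to young ratio of 0.933 with a 95% interval from 0.430 to 2.02 (limma adjusted p = 0.995, exact two-sided permutation p = 0.83).

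The order of the mir-34 family was the same in all 8 libraries, mir-34c above mir-34a above mir-34b. mir-34c exceeded its neighbour mir-34b by 3.44 to 4.30 in log2 abundance per length, where equal reads would give 0.13. This is a mean of 14.6-fold, although they lie in 1 cluster. The size of this gap was 3.87 ± 0.29 (old) and 3.86 ± 0.35 (young) (SD over 4 libraries per group; exact two-sided permutation p = 1.0). mir-34c exceeded mir-34a by 1.76 to 3.07, where equal reads would give 0.41. The gap was 2.14 ± 0.35 (old) and 2.34 ± 0.50 (young) (exact two-sided permutation p = 0.6, n = 4 each). Young 2 had the widest gap between mir-34c and mir-34a, since mir-34a was at its lowest there while mir-34c was at its mean.

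**Figure D1:**
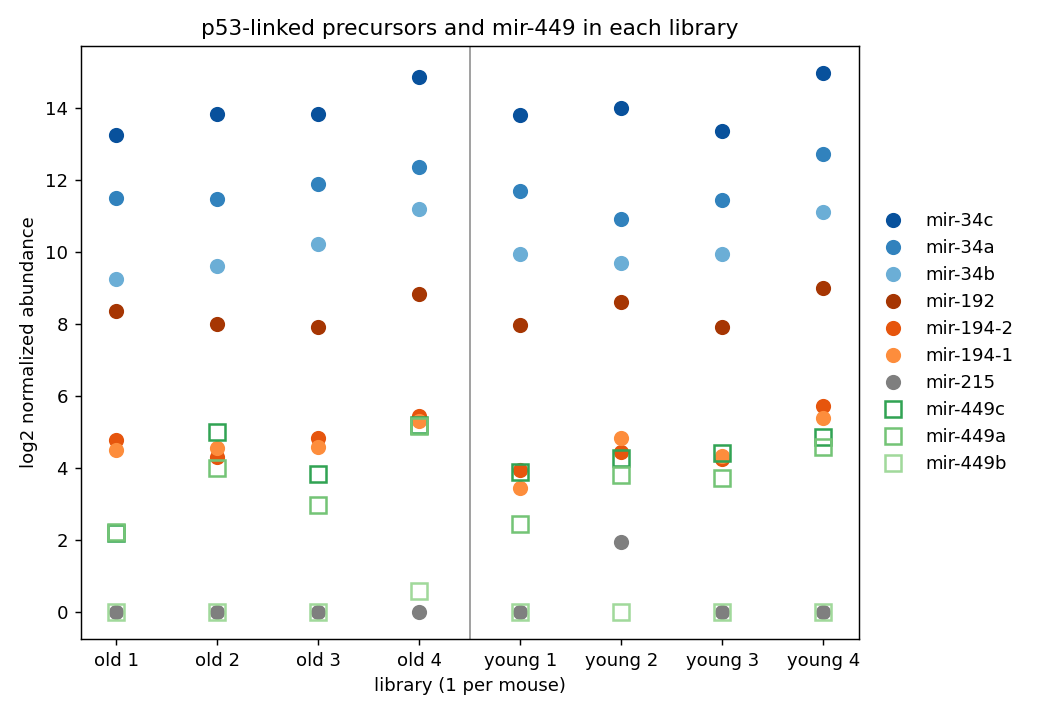
Log2 normalized abundance (y axis) of the 7 precursors (circles) and of the 3 mir-449 precursors (squares) in each of the 8 libraries (x axis, old on the left, young on the right); each point is 1 library. mir-34c is the highest of those plotted in every library, from 13.25 to 14.97, mir-215 is above 0 in young 2 alone, and old 4 and young 4 are the highest libraries for mir-34a, mir-34b, mir-34c, mir-192 and both mir-194 copies.

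mir-192 followed at 8.37, 8.0, 7.93 and 8.84 in the old mice (1 to 4) and at 7.96, 8.61, 7.91 and 8.99 in the young mice (1 to 4). It lay below mir-34b in every library, by 0.89 to 2.35. Its libraries were the closest together of the 6 precursors compared, with 2.11-fold between the lowest and the highest. The means were 8.29 ± 0.42 (old) and 8.37 ± 0.52 (young) (SD over 4 libraries per group), a ratio of 0.944 with a 95% interval from 0.510 to 1.75 (limma adjusted p = 0.995, exact two-sided permutation p = 0.800).

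The mir-194 copies were low. mir-194-1 was at 4.49, 4.56, 4.58 and 5.30 in the old mice (1 to 4) and at 3.45, 4.85, 4.33 and 5.40 in the young mice (1 to 4). mir-194-2 was at 4.78, 4.30, 4.85 and 5.46 in the old mice (1 to 4) and at 3.95, 4.44, 4.26 and 5.72 in the young mice (1 to 4). Both were lowest in young 1 and highest in young 4, and their groups overlapped. Recovered reads came to 22 to 112 for mir-194-1 and 40 to 179 for mir-194-2, fewer than for any precursor of the mir-34 family. The part of counting error in the spread was not tested. The old to young ratios were 1.17 with a 95% interval from 0.523 to 2.61 for mir-194-1 and 1.19 from 0.536 to 2.66 for mir-194-2 (limma adjusted p = 0.995 for each; exact two-sided permutation p = 0.714 and 0.571, n = 4 each).

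On the per-length scale the copies could not be ordered: mir-194-2 was the higher in 5 of 8 libraries, with differences from -0.41 to 0.50. If only the same reads had been listed under both names, the difference would have been the log2 ratio of their lengths, -0.36, in every library. Only young 2, at -0.41, was below this. In the other libraries more reads were listed for mir-194-2 than for mir-194-1. mir-192 lay 3.08 to 4.17 above mir-194-2, its neighbour on chromosome 19, a mean of 12.2-fold, where equal reads would give -0.05 in log2. This gap was 3.44 ± 0.27 (old) and 3.78 ± 0.40 (young) (SD over 4 libraries per group), a difference of -0.34 (exact two-sided permutation p = 0.257).

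mir-215, which shares the seed of mir-192 and the locus of mir-194-1, was listed at 0 in 7 of 8 libraries and at 1.95 in young 2. That value stands for 14 recovered reads, while a listed 0 allows up to 2.80 to 4.42 reads, depending on the library. No fold between the groups is given for it, since all old libraries are listed at 0 (exact two-sided permutation p = 1.0, n = 4 each).

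None of the 6 compared precursors differed between old and young libraries by more than the spread between libraries, and 0 had groups that did not overlap. Across all 359 precursors 0% passed an adjusted p of 0.05 in limma (0 of 359; 4 at an unadjusted p under 0.05, and 0 and 3 with voom on recovered reads; without old 3 it was 0 and 36, and without young 4 it was 0 and 27), and 0.836% had groups that did not overlap. Without both old 3 and young 4, 33 of 359 passed in limma, none of them among the 6. Earlier results had set these libraries apart. Of the 6, 3 had a higher mean in old libraries and 3 a lower one, with a median difference of 0.01. Beside this, 165 of all 359 precursors compared were higher, with a median of -0.05. The intervals do not show that the groups were alike: for the mir-34 family they reach from 0.430 to 2.08 as a ratio of old to young, so differences of about 2-fold in either direction lie within or close to them. The spread was of the usual size for these libraries, with a pooled SD within groups of 0.62 for mir-34a, 0.75 for mir-34b and 0.67 for mir-34c, against a median of 0.67 over the 359.

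Leaving out 1 library turned the sign of the difference for mir-34a, mir-34b, mir-34c, mir-192 and mir-194-1, but not for mir-194-2, which stayed between 0.041 and 0.63. Without young 4 all 6 differences were above 0, from 0.12 for mir-192 to 0.63 for mir-194-2, with mir-34a at 0.45, mir-34b and mir-34c at 0.22 and mir-194-1 at 0.52. Without old 4 the difference of mir-34a turned to -0.09, and that of mir-34b was -0.47 and that of mir-34c -0.40. Without young 2 that of mir-34a was -0.16, and without young 1 that of mir-194-1 was -0.13. Without old 1 those of mir-34b and mir-34c were 0.17 and 0.14. Without old 2 those of mir-34b and mir-192 were 0.05 and 0.012, and without old 3 that of mir-192 was 0.036. When the libraries were scaled to the sum of all values except those of mir-486 and its second listing as mir-3107, all 6 were above 0, from 0.10 for mir-34b and mir-34c to 0.45 for mir-194-2, while the median of all 359 moved from -0.05 to 0.14. Over the 22 alternatives run, which gave 130 values for the 6 precursors, 21 values had the opposite sign and 0 passed the threshold (limma adjusted p).

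**Figure D2:**
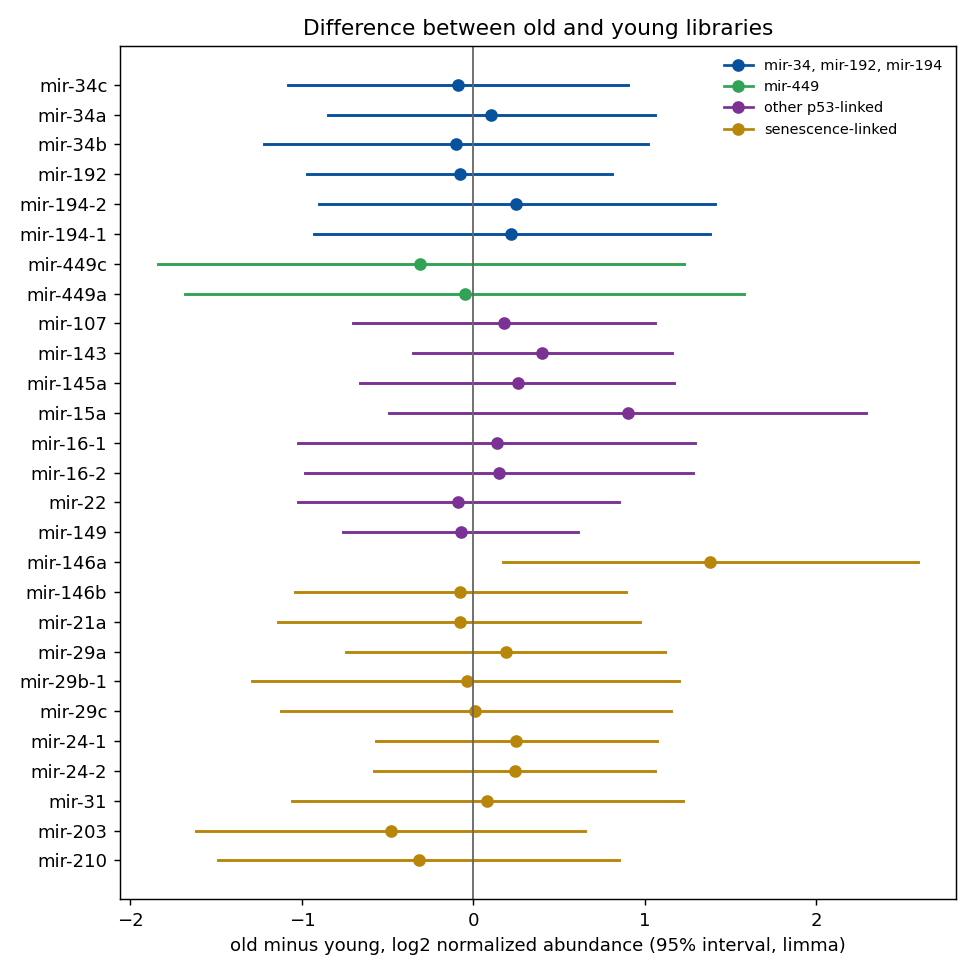
Old minus young difference in log2 normalized abundance (x axis) with its 95% interval from limma, for the 6 compared precursors (blue), mir-449a and mir-449c (green) and the compared members of the other p53-linked list (purple) and the senescence-linked list (ochre); n = 4 libraries in each group. The intervals of the mir-34 family run from -1.22 to 1.06 and span 0, and mir-146a at 1.38 is the precursor whose interval lies above 0 without adjustment for the number of tests.

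The compared precursors shared the mice in which they were highest. Old 4 and young 4 were the 2 highest libraries for 6 of 6 compared precursors. This was also so for 119 of all 359 precursors compared (33.1%), members included. Measured over all compared precursors, old 4 stood 0.37 and young 4 stood 0.58 above the common level, and the other 6 libraries stood between -0.33 and 0.09. The part of this shift in the members' order was not tested. After scaling without mir-486 and mir-3107, old 4 and young 4 remained the 2 highest for 5 of the 6 (not for mir-192), beside 12.8% of all 359. It was 5 of 6 beside 13.1% after TMM rescaling, 4 of 6 beside 11.7% after median-ratio rescaling and 4 of 6 beside 15.9% after quantile rescaling. The precursors of 1 locus are not independent of each other, nor are the copies of mir-194, so these counts are a description.

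In old 4, mir-34c stood 0.86, mir-34b 1.07 and mir-34a 0.61 above the mean of the 8 libraries, and in young 4 they stood 0.98, 1.0 and 0.98 above it. After scaling without mir-486 and mir-3107 they stood 0.59, 0.80 and 0.34 above it in old 4 and 0.50, 0.51 and 0.50 in young 4. mir-192 stood 0.24 and 0.18 above it on that scale, below the 0.35 of old 1. With both old 4 and young 4 left out, an alternative chosen after seeing the data, the age differences were -0.08 for mir-34c, 0.26 for mir-34a and -0.16 for mir-34b, and 0 of 359 precursors passed in limma (9 at an unadjusted p under 0.05).

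**Figure D3:**
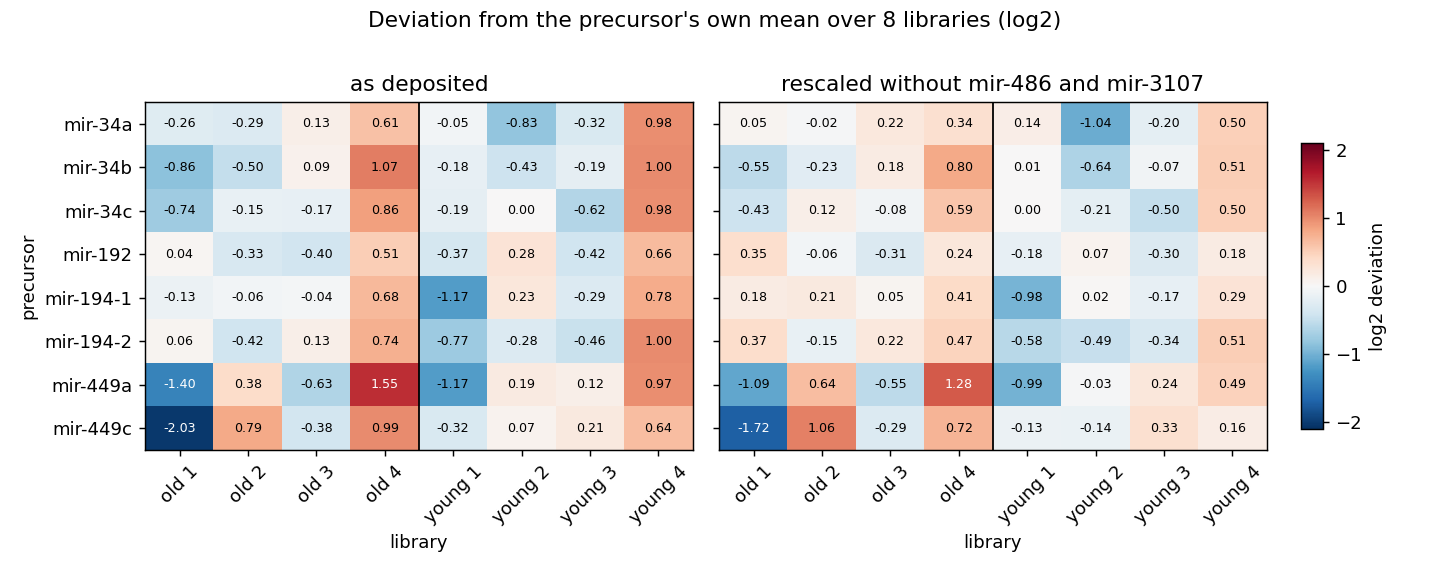
Deviation of each precursor from its own mean over the 8 libraries, in log2 units (numbers and colour), for the 6 compared precursors and mir-449a and mir-449c (rows) in each library (columns; the black line parts old from young), as deposited (left) and rescaled with mir-486 and mir-3107 left out of the sum (right). Old 4 and young 4 are above the mean for every precursor shown on the left, by 0.51 to 1.55, and less so on the right.

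Markers of other cell types were read in the same libraries. The epithelial list, relevant because mir-192, mir-194 and mir-215 are abundant in epithelia, had 2 of 9 members above the filter, mir-205 and mir-203. Of the others, mir-200a and mir-429 were at 0 in every library, and mir-122, specific to liver, was at 0 to 2.53. mir-375 was low but above 0 in every library, at 1.26 to 3.05. mir-141, mir-200b and mir-200c were at 0 in some libraries and reached 2.89, 2.39 and 1.74. The summed log2 level of the list was 5.58 to 8.14 in old and 6.27 to 7.71 in young libraries, highest in old 4 and young 4. mir-205 alone was at 8.02 in old 4 and 7.35 in young 4, against 4.78 to 6.43 in the others. Of the 5 blood markers, 4 were matched by name, and mir-142, the older name of the listed mir-142a, was at 0 in every library. Of those 4, mir-144 and mir-223 were at 0 in every library and mir-451a was at 0 in 7 of 8, and mir-150 was highest in old 4 (4.47) and young 4 (4.32). The endothelial marker mir-126a was at 4.34 in old 4 and 5.11 in young 4, against 2.96 to 3.68 in the others. All 5 fibroblast and smooth muscle markers passed the filter, with a summed log2 level of 15.36 to 15.84 in old and 14.58 to 15.65 in young libraries. The mean of each of these 5 was higher in old libraries, with a median difference of 0.29, beside 46.0% of all 359, and 0 passed the threshold (limma adjusted p). The 5 are not separate counts. mir-199a-1 and mir-199a-2, with differences of 0.29 and 0.26, rose and fell together, both lowest in young 1 and highest in old 4. The part of other cells in the levels of mir-34 and mir-192 was not tested, and a different mix of cells and a different amount of microRNA per cell cannot be told apart in these samples.

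The mir-449 precursors, which carry the miR-34 seed and lie together in an intron of Cdc20b on chromosome 13, were far below the mir-34 family. mir-449a was at 2.23, 4.0, 2.99 and 5.18 in the old mice (1 to 4) and at 2.45, 3.81, 3.74 and 4.60 in the young mice (1 to 4). mir-449c was at 2.19, 5.01, 3.84 and 5.21 in the old mice (1 to 4) and at 3.90, 4.29, 4.43 and 4.86 in the young mice (1 to 4). Both varied more than the mir-34 precursors, with 7.73-fold and 8.11-fold between the lowest and highest libraries, on 12 to 87 and 14 to 125 recovered reads. mir-449b was above 0 in old 4 alone, at 0.58. In every library mir-34b exceeded mir-449a, by 5.62 to 7.49 in log2 abundance (a mean of 90.2-fold), where equal reads would give 0.12. mir-34b held 1438 to 7372 recovered reads. The old to young ratios were 0.966 with a 95% interval from 0.311 to 3.0 for mir-449a and 0.808 from 0.279 to 2.34 for mir-449c (limma adjusted p = 0.995 for each).

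Other precursors tied to p53 showed no difference by age past the threshold either. Of 11 listed (mir-107, mir-143, mir-145a and mir-145b, mir-15a, both mir-16 copies, mir-22, mir-200c, mir-141 and mir-149), 8 were compared, of which 6 had a higher and 2 a lower mean in old libraries, with a median difference of 0.16 and 0 past the threshold. mir-22, the most abundant, measured 16.75 ± 0.32 (old) and 16.84 ± 0.83 (young). mir-143, whose processing p53 is known to promote in human cells, measured 15.20 ± 0.31 and 14.79 ± 0.54. mir-149 measured 12.65 ± 0.37 and 12.72 ± 0.31, and mir-107 measured 9.43 ± 0.43 and 9.25 ± 0.55 (SD over 4 libraries per group). The 6 include mir-16-1 and mir-16-2, whose log2 values differed by -0.01 to 0.13 in each library, so that they count nearly the same values again, and mir-143 and mir-145a, which are also fibroblast and smooth muscle markers. The largest difference on this list was that of mir-15a, 0.90 with a 95% interval from -0.49 to 2.29 (limma adjusted p = 0.995). Old 4 and young 4 were the 2 highest libraries for 3 of the 8, mir-107 and both mir-16 copies, beside 33.1% of all 359.

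Of 13 precursors linked to senescence, 12 were compared, with 6 higher and 6 lower in old libraries, a median difference of -0.01 and 0 past the threshold. mir-22, which this list also holds, is given above. mir-24-1, which represses p16 in human cells, measured 13.96 ± 0.46 (old) and 13.71 ± 0.54 (young). mir-31 measured 13.93 ± 0.49 and 13.85 ± 1.03, and mir-21a 13.33 ± 0.57 and 13.41 ± 0.85 (SD over 4 libraries per group). The groups of 1 member did not overlap, beside 3 of all 359 (0.836%): in mir-146a, which dampens NF-kB signalling, old libraries were at 4.73 to 6.80 and young ones at 3.77 to 4.46 (difference 1.38, limma adjusted p = 0.995). The two-sided exact permutation p of 0.0286, the floor for groups of this size, only restates that the groups did not overlap, for which mir-146a was named. Old 4, the old library with the most mir-34c, also had the most mir-146a, while young 4 at 4.04 had less than young 1 and young 2. Old 4 and young 4 were the 2 highest libraries for 9 of the 12 members compared, beside 33.1% of all 359. Among the 9 are both mir-24 copies, whose log2 values differed by a near constant 0.56 to 0.63.

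The precursors whose pattern over the 8 libraries was most like each compared member were named by Pearson's r on the log2 values. This describes values that share libraries, depth and scaling, and the part of the mir-486 share in it was not tested. For mir-34a they were mir-700 (r = 0.960), mir-155 (r = 0.938) and mir-345 (r = 0.925). For mir-34b they were mir-30b (r = 0.976), mir-219c (r = 0.955) and mir-345 (r = 0.954). mir-34c was closest to mir-30e and mir-30f, which hold identical values in every library, and to mir-30c-1 (r = 0.986, 0.986 and 0.985). mir-192 was closest to mir-3082 (r = 0.977), mir-148a (r = 0.974) and mir-425 (r = 0.948). mir-194-1 was closest to mir-187, mir-652 and mir-150 (r = 0.965, 0.961 and 0.958), and mir-194-2 to mir-1945 (r = 0.973) and to mir-24-2 and mir-3074-2 (r = 0.960 for each), which differ by their length ratio alone. Of these 17 precursors 16 had old 4 and young 4 as their highest libraries, beside 33.1% of all 359. That count follows largely from the choice by likeness to members that are highest in the same libraries, so it is no separate result. After scaling without mir-486 and mir-3107 the values of r ranged from 0.816 to 0.968.

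**Figure D4:**
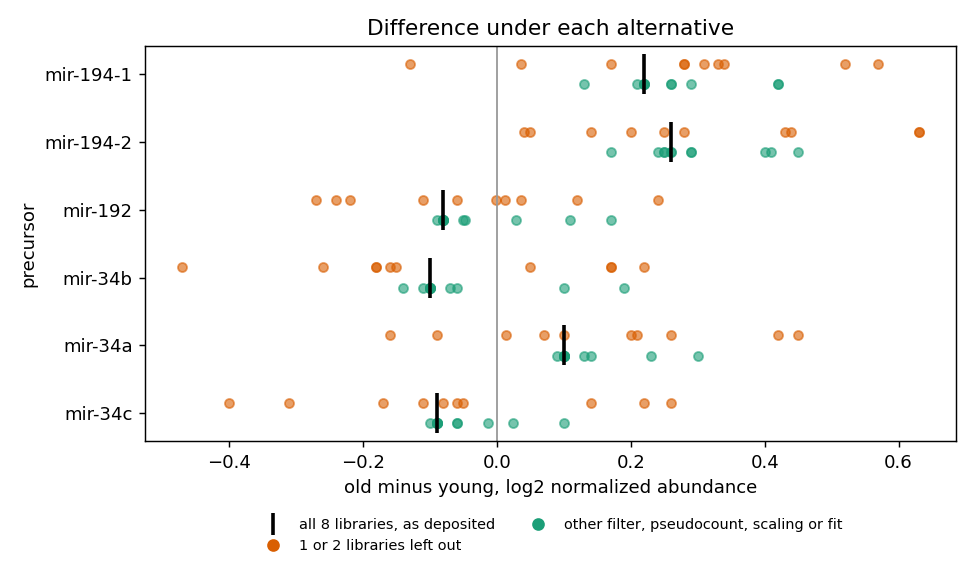
Old minus young difference in log2 normalized abundance (x axis) of the 6 compared precursors (rows) with all 8 libraries (black bar), with 1 or 2 libraries left out (orange) and with another filter, pseudocount, scaling or fit (green); each point is 1 alternative. mir-34c, mir-34a, mir-34b, mir-192 and mir-194-1 have points on both sides of 0, and leaving out libraries moved the differences further, from -0.47 to 0.63, than the other choices did.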

How the data were processed

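The authors deposited log2 values of normalized abundance for 1181 microRNA precursors in 8 libraries; BWA and the build mm10 are named per the submitters' processing notes, and neither a version nor a role is stated. How reads were counted, normalized and shared between similar hairpins is not stated there. With precursor lengths from RefSeq (1162 of 1181 matched), all low values, up to 12 reads, fell on whole multiples of 1 read (111 to 216 values per library, tolerance 0.1), as reads per length and depth would; library sizes and recovered reads rest on this. Reads are not independent molecules.

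limma 3.58.1 (R 4.3.3; eBayes with trend) was run on the deposited log2 values for the 359 precursors at 10 or more (linear) in 4 or more libraries, with Benjamini-Hochberg adjustment over all of them and a threshold of 0.05, and checked on simulated data. Exact permutation tests used all 70 arrangements. Python 3.11.15, numpy 2.4.6, pandas 2.3.3 and matplotlib 3.10.9 were used otherwise. The members, lists and alternatives were chosen with earlier results of these data known. Named precursors were the 7 members, mir-449, up to 4 of the most abundant of each list, the 3 nearest patterns per member, and mir-206 and mir-486. mir-15a, mir-133b, mir-146a and the low markers were named after their values were seen. Alternatives were other filters, pseudocounts of 1 and 10, median-ratio, TMM and quantile rescaling, scaling without mir-486 and mir-3107, limma settings, voom on recovered reads, a replicate block and left-out libraries.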

Additional observations from a re-analysis of the deposited data

Results flagged for a closer look

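In old libraries mir-194-1 was highest in old 4 at 5.30, far from the other 3, which lay between 4.49 and 4.58 (the gap was 0.889 of the range). mir-215 was at 1.95 in young 2 and at 0 in the other young libraries, and mir-449b was at 0.58 in old 4 and at 0 in the other old libraries. With 4 libraries in a group, chance sets a library apart in this way in about 1 of 20 groups, and 18 groups were looked at here. This rate does not apply to mir-215 and mir-449b. There, a single library above the floor of 0 is set apart by construction, whatever its value.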

How the results depend on the processing

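The count of 0 precursors past the threshold held in every alternative except without both old 3 and young 4, where 33 of 359 passed in limma; none of the 6 compared members was among them, and these libraries were left out because earlier results set them apart. Signs turned as follows, the cause was not tested: with quantile rescaling mir-34b was at 0.19, mir-34c at 0.024 and mir-192 at 0.17; with mir-486 and mir-3107 left out of the scaling sum they were at 0.10, 0.10 and 0.11; with array weights mir-192 was at 0.028; without both old 3 and young 4 they were at 0.17, 0.26 and 0.24, and mir-194-1, which kept its sign, at 0.57. With 1 library left out the differences ranged from -0.16 to 0.45 for mir-34a, -0.47 to 0.22 for mir-34b, -0.40 to 0.22 for mir-34c, -0.27 to 0.12 for mir-192, -0.13 to 0.52 for mir-194-1 and 0.041 to 0.63 for mir-194-2, while for mir-215, at 0 in all old libraries, the difference of the listed values, which is no fold, ranged from -0.65 to 0 and rests on young 2. The replicate number as a block gave 0 past the threshold (39 at an unadjusted p under 0.05) and left the differences of the 6 members as they were, with adjusted p = 0.947 in limma. The deviations of same-numbered libraries correlated at -0.0637 for number 1 and at 0.435, 0.662 and 0.580 for numbers 2 to 4. Numbers 2 to 4 correlated best with their own number and number 1 did not, a hint from the data and not from the labels, so the comparison has no block. mir-215 was not fitted in the settings that need the filter, and mir-194 did not reach the mean of 100. At 22 to 179 recovered reads for the mir-194 copies and 0 to 14 for mir-215, depth limits what can be seen there.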
